A study of Homo sapiens with 22 samples.

Results

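The genes described are the inhibitors of cyclin-dependent kinases (CDKs) and the 9p21 locus that holds 2 of them. The 9 genes were chosen by symbol, out of 26485 symbols in each count table: CDKN1A, CDKN1B, CDKN1C, CDKN2A, CDKN2B, CDKN2C, CDKN2D, CDKN3 and MTAP. The 22 RNA-seq libraries are labelled as MDA-MB231, an established triple-negative breast cancer line of mesenchymal character, and form 3 experiments. In the first, cells of WT genotype received Nexturastat A, an inhibitor of the deacetylase HDAC6, at 7.65 µM for 2 days (2 libraries) or DMSO, labelled Ctrl (2 libraries). In the second, cells carried 1 of 2 hairpins against HDAC6, shHDAC6-1 or shHDAC6-2 (genotype HDAC6 knockdown), or the control hairpin shCtrl (genotype WT), with 3 libraries each at day 0. In the third, WT cells at day 2 had received HPOB or Tubastatin A, both described as HDAC6 inhibitors, or DMSO, with 3 libraries each. The titles of the Tubastatin A libraries read TSA, also a common abbreviation of trichostatin A, a broad deacetylase inhibitor; the treatment label is followed here, and which compound was used was not settled. The sources used here do not give the doses of HPOB and Tubastatin A, nor whether the hairpin cells were pools or clones. No label says whether replicates were separate cultures, so the p-values below measure the spread between these libraries, which may be technical.

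CDK inhibitors slow the cell cycle by binding CDKs or their complexes with cyclins. The Cip/Kip proteins p21 (CDKN1A), p27 (CDKN1B) and p57 (CDKN1C) bind cyclin-CDK complexes, while the INK4 proteins p16 (CDKN2A), p15 (CDKN2B), p18 (CDKN2C) and p19 (CDKN2D) bind CDK4 and CDK6 and so keep the RB protein active. CDKN2A also encodes ARF, which binds MDM2 and is read from another first exon. CDKN3 is a phosphatase that acts on CDK2 and is itself transcribed in dividing cells, and MTAP is a methionine salvage enzyme whose gene lies beside CDKN2A and is often lost with it. MDA-MB-231 is known as a line with homozygous loss of CDKN2A.

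The CDKN1A promoter is known for GC boxes, the binding sites of SP1 and SP3. The hexamer GGGCGG was searched on both strands, overlaps counted, in the 250 bases before each RefSeq start (GRCh38.p14). Of the 9 genes, 8 had a window, and 8 of their 11 windows held the hexamer, against 42.6% of 35116 such windows of all genes. The CDKN1A window held 4 copies, a number reached or passed by 7.63% of windows; the windows of CDKN1B and CDKN3 held 1 and 0. The 3 windows of CDKN2C, a gene lower with Nexturastat A, held 0, 5 and 1, so a high number was not particular to the genes that were higher. The stretches below are shown because CDKN1A and CDKN2D were the genes higher with Nexturastat A and CDKN3 was a gene with 0 copies. Each is a part of its window that lies outside every GENCODE 29 exon, 5′ to 3′ on the gene's strand, with the hexamer in capitals.
CDKN1A (chr6:36678560-36678657, plus strand): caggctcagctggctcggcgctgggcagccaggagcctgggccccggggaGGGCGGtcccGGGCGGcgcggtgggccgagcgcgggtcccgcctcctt
CDKN2D (chr19:10569060-10569229, minus strand): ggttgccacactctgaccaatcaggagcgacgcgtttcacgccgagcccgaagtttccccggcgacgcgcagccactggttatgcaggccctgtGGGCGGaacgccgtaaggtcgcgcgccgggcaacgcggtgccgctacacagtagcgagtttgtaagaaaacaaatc
CDKN3 (chr14:54396757-54396848, plus strand): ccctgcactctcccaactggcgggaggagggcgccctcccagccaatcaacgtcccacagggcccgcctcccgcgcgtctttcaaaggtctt
The printed CDKN1A stretch holds 2 of its 4 copies, and the printed CDKN2D stretch 1 of 2. Binding was not measured, and a match is a description of letters only.

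The libraries held between 31238740 and 85942315 counts. Levels are given as CPM, a gene's count scaled to the library total. Knockdown replicates 1 and 2 stood apart from replicate 3 and from the other experiments. The summed level of 8 markers of embryonic kidney or neuronal-like lines (IRS4, LIN28B, IGF2BP1, ELAVL3 and 4 others) in replicates 1 and 2 was 1189 to 1393 CPM for shHDAC6-1, between 1426 and 1509 CPM for shHDAC6-2 and 879 to 958 CPM for shCtrl. In replicate 3 it was 21.9 CPM for shHDAC6-1, 67.4 CPM for shHDAC6-2 and 0.108 CPM with shCtrl, and it was at most 1.33 CPM in the other 13 libraries. The summed level of 10 markers of mesenchymal triple-negative lines was 845 to 959 CPM in the hairpin libraries and 842 to 943 CPM in the shCtrl libraries of replicates 1 and 2, against 4291 CPM or more in every other library. Replicates 1 and 2 and replicate 3 of the knockdown are therefore described apart throughout.

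The genes at 9p21 divided the libraries. Transcripts of CDKN2A, CDKN2B and MTAP were abundant in the 6 knockdown libraries of replicates 1 and 2, sparse in both hairpin libraries of replicate 3, and at or near 0 in the remaining 14. In bulk libraries, fewer cells with a transcript and less of it per cell cannot be told apart.

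CDKN2A lies at chromosome 9:21967753-21995301 (GRCh38, GENCODE 29, minus strand). It had 160 and 184 CPM in shHDAC6-1 replicates 1 and 2, 140 and 166 CPM in shHDAC6-2 replicates 1 and 2, and 150 and 152 CPM in shCtrl replicates 1 and 2. In replicate 3 it had 7.11 CPM (611 counts, 95% Poisson interval 6.56 to 7.70 CPM) with shHDAC6-1, 24.1 CPM (1419 counts, 22.9 to 25.4 CPM) with shHDAC6-2 and 0 counts with shCtrl. The hairpin libraries of replicate 3 thus sat between the 6 libraries with the transcript and those without it, and shCtrl replicate 3 sat with those without it. Against a floor of 3 counts in that shCtrl library, the level was at least 154-fold higher in CPM with shHDAC6-1 and at least 521-fold higher with shHDAC6-2. Such intervals and floors describe counting error alone, because PCR copies were not told apart by molecular identifiers. The same hairpin libraries also held more of the kidney or neuronal-like markers, 21.9 CPM with shHDAC6-1 and 67.4 CPM with shHDAC6-2, against 0.108 CPM with shCtrl. The part of the hairpins and of other cells in these folds was not tested.

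In the Nexturastat A experiment, CDKN2A had 2 counts in Nexturastat A replicate 1 and 0 counts in Nexturastat A replicate 2 and both Ctrl libraries. In the 9 libraries of HPOB, Tubastatin A and DMSO, CDKN2A, CDKN2B and MTAP had 0 counts. The 95% Poisson interval of a count of 0 reaches 0.118 CPM in the shallowest of the 14 libraries and 0.0569 CPM in the deepest. Gene-level counts do not separate the p16 and ARF transcripts.

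MTAP, at chromosome 9:21802543-21937651 on the plus strand, followed the same division. It had 42.7 and 43.5 CPM in shHDAC6-1 replicates 1 and 2, 40.9 and 35.6 CPM in shHDAC6-2 replicates 1 and 2, and 37.1 and 32.05 CPM in shCtrl replicates 1 and 2. In replicate 3 it had 1.00 CPM (86 counts) with shHDAC6-1, 2.89 CPM (170 counts) with shHDAC6-2 and 0 counts with shCtrl, which is at least 21.6-fold higher in CPM with shHDAC6-1 and at least 62.4-fold higher with shHDAC6-2. As for CDKN2A, the part of the hairpins and of other cells in these folds was not tested. The only MTAP counts elsewhere were 2 in Ctrl replicate 2.

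CDKN2B, at chromosome 9:22002903-22009363 on the minus strand, was the least expressed of the 3. It had 6.99 and 6.89 CPM in shHDAC6-1 replicates 1 and 2, 7.46 and 7.47 CPM in shHDAC6-2 replicates 1 and 2, and 7.32 and 8.37 CPM in shCtrl replicates 1 and 2. In replicate 3 it had 8 counts (0.0931 CPM) with shHDAC6-1, 12 counts (0.204 CPM) with shHDAC6-2 and 0 counts with shCtrl. Ctrl replicate 2 held 4 counts, so CDKN2B passed the floor of 3 counts in 9 libraries, against 8 for CDKN2A and 8 for MTAP. CDKN2B lies within the antisense gene CDKN2B-AS1, CDKN2A overlaps it, and no source used here gives the strand setting of the counting, so reads from these partners cannot be told apart.

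The absence covered a run of genes. Among 19 genes listed in chromosome order from MLLT3 to LINGO2, the 10 from HACD4 to ELAVL2 summed to 10 counts over the 14 libraries, with at most 4 counts in any library. FOCAD on the telomere side, with 79 to 243 counts, and TUSC1 on the centromere side, with 278 to 588 counts, were counted in each of the 14. Both were nevertheless lower there than in the 6 libraries of replicates 1 and 2. FOCAD had 2.42 to 5.497 CPM in the 14, against 35.995 to 47.86 CPM in the 6. TUSC1 stayed below the 21.3 CPM that was its lowest level in the 6. MLLT3, beyond FOCAD, overlapped, with 12.2 to 44.5 CPM in the 14 and 26.6 to 34.1 CPM in the 6. The interval between FOCAD and TUSC1 spans 4.68 Mb, and lower levels were not confined to it. Of the 10 genes in the run, 6 exceeded 1 CPM in each of the 6 libraries of replicates 1 and 2: KLHL9, MTAP, CDKN2A, CDKN2B-AS1, CDKN2B and ELAVL2. The other 4 (HACD4, IFNB1, IFNE and DMRTA1) were at 0.436 CPM or less even there, so their 0 counts elsewhere carry little information.

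**Figure D1:**
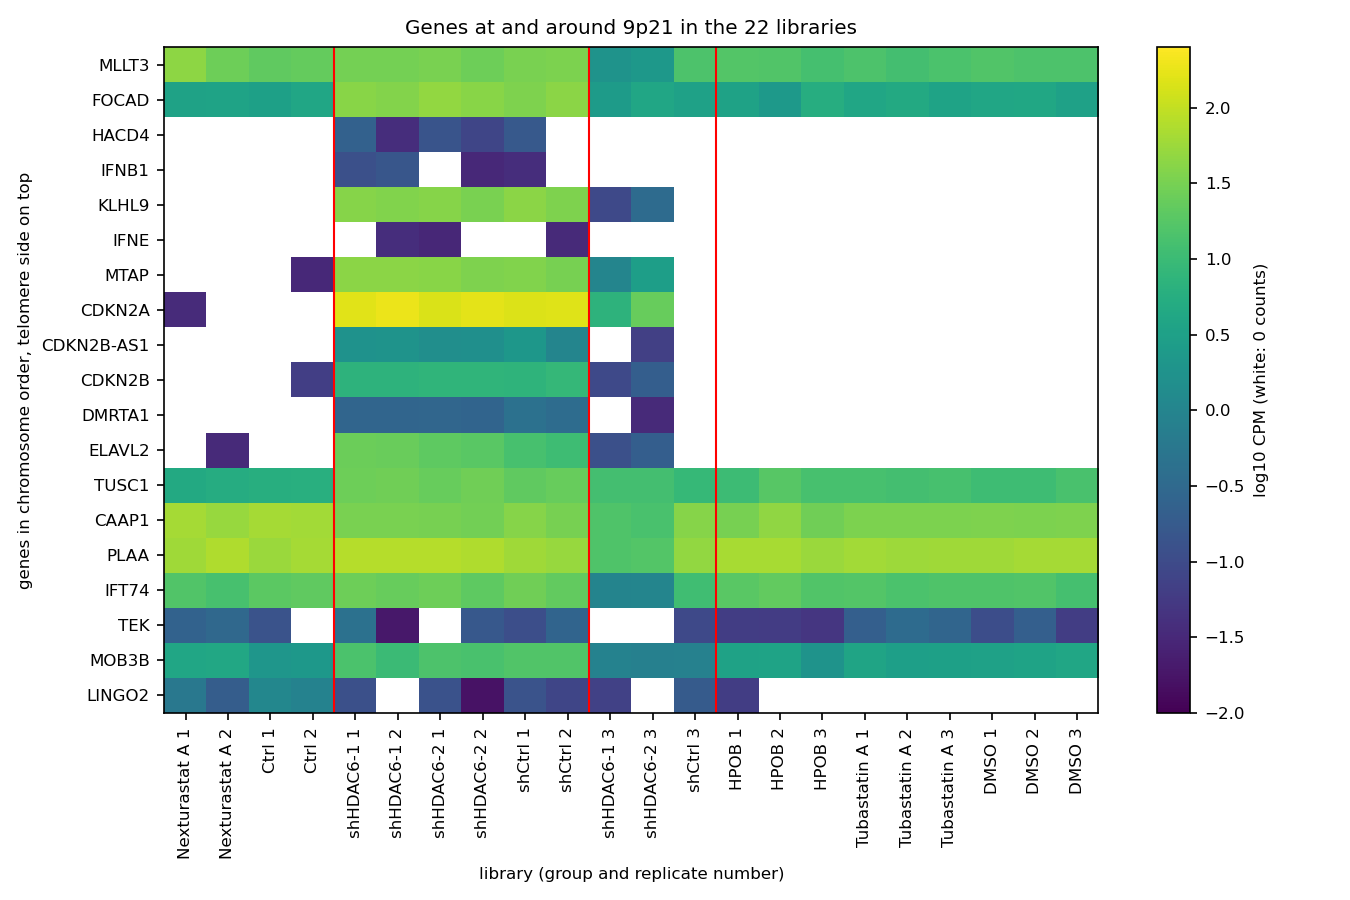
Level of 19 genes at and around 9p21 (rows, in chromosome order from the telomere side) in the 22 libraries (columns, red lines between sets), as log10 CPM; white marks 0 counts. The run from HACD4 to ELAVL2 is nearly empty in 14 libraries, filled in knockdown replicates 1 and 2 and sparse in the hairpin libraries of replicate 3.

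The residual levels in replicate 3 of the hairpins differed between genes of the run. As a share of the mean of replicates 1 and 2 of the same hairpin, CDKN2A stood at 4.13% with shHDAC6-1 and 15.7% with shHDAC6-2. MTAP stood at 2.32% and 7.54%, CDKN2B at 1.34% and 2.73%, ELAVL2 at 0.465% and 1.04%, and KLHL9 at 0.246% and 0.933% with the same hairpins. Each share was higher with shHDAC6-2, as was the summed level of the 8 kidney or neuronal-like markers given above (67.4 against 21.9 CPM). Low shares were not particular to the run. Of the listed genes outside it that were counted in all 22 libraries, IFT74 stood at 3.76% and 4.28%. MLLT3 stood at 6.15% and 7.52%, FOCAD at 6.49% and 8.75%, and MOB3B at 7.38% and 5.68%. PLAA stood at 19.2% and 21.5%, TUSC1 at 44.3% and 46.4%, and CAAP1 at 47.5% and 45.4%. The GC content of the longest transcript was 61.4% for CDKN2A, 44.6% for CDKN2B, 39.3% for KLHL9, 39.1% for MTAP and 36.2% for ELAVL2. The part of other cells and of GC content in these shares was not tested.

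The remaining 6 inhibitors were counted in every library. Per kilobase of the longest transcript, the order of mean levels in DMSO was CDKN3 (67.3 CPM per kb), CDKN2D (32.1), CDKN1A (26.2), CDKN1B and CDKN2C (15.7 each) and CDKN1C (3.91). In Ctrl the order was CDKN3 (94.0 CPM per kb), CDKN1B (32.7), CDKN2C (22.4), CDKN2D (21.2), CDKN1A (18.8) and CDKN1C (5.58). CDKN3 was the highest and CDKN1C the lowest in both control groups. In shCtrl replicates 1 and 2 CDKN2A led at 117 CPM per kb, followed by CDKN1A (59.7), CDKN3 (22.7), CDKN2C (18.8), CDKN1B (13.5), CDKN2D (11.1), CDKN1C (8.15), MTAP (4.57) and CDKN2B (2.00).

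**Figure D2:**
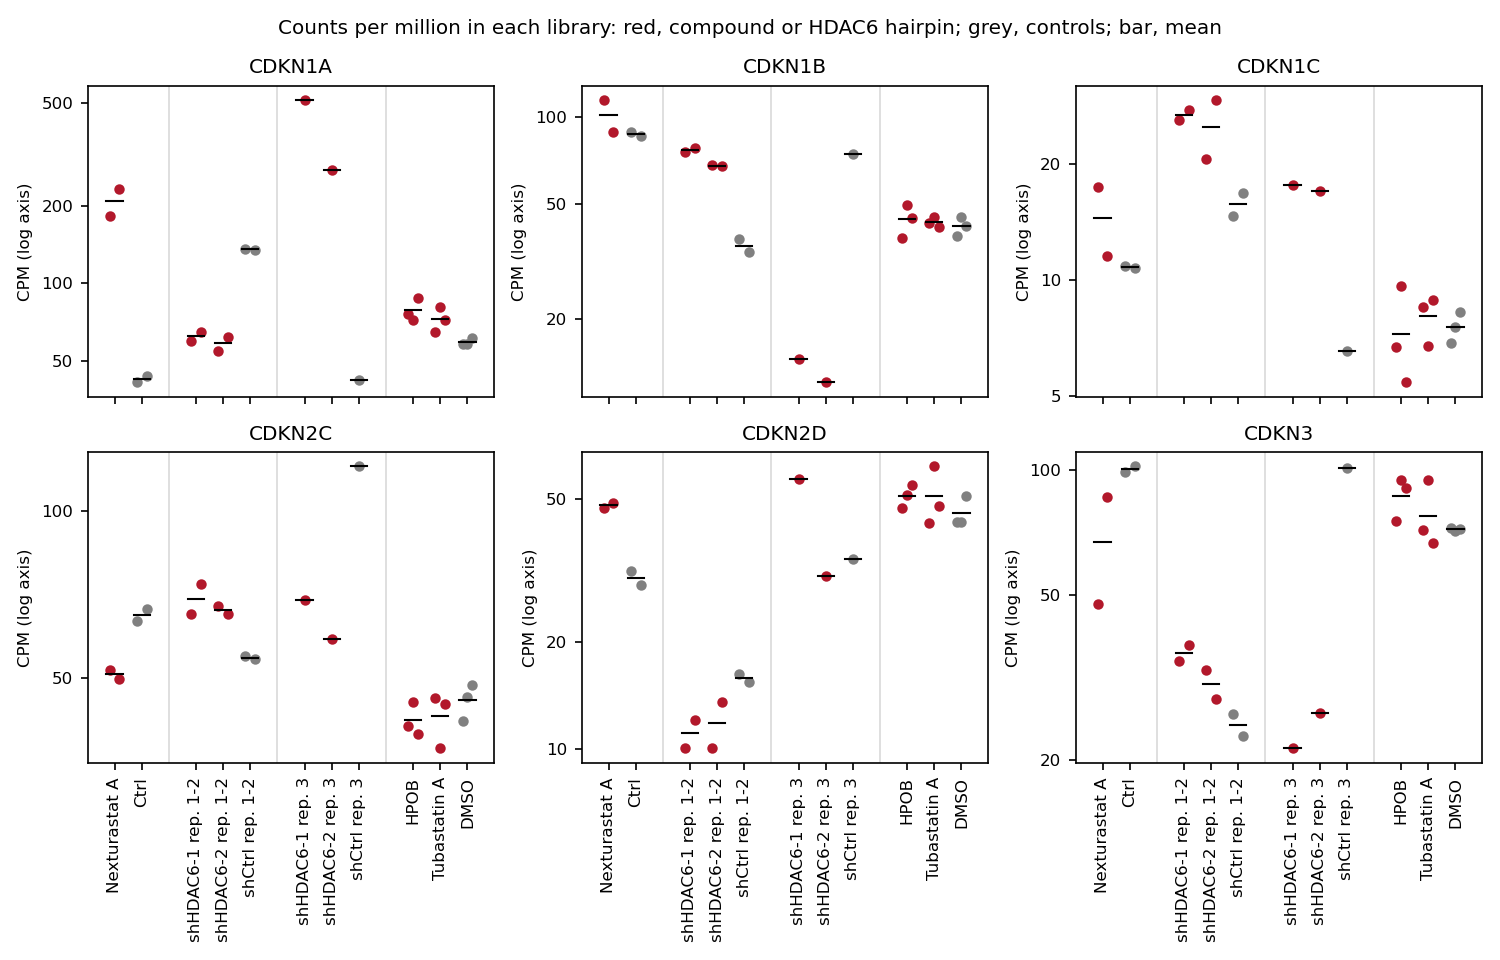
Level of the 6 inhibitors counted in every library (CPM, log axis), 1 point a library and a bar for the mean of each group; red marks a compound or HDAC6 hairpin and grey the controls. CDKN1A is above its control with Nexturastat A and in replicate 3 of the hairpins, and below it in replicates 1 and 2.

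With Nexturastat A, CDKN1A mRNA rose and was the largest change among the inhibitors. It had 182 and 233 CPM with Nexturastat A, against 41.3 and 43.9 CPM in Ctrl. The libraries of the groups did not overlap, and the log2 fold change was 2.20 ± 0.16 (SE, n = 2 each; edgeR adjusted p = 0.000470). Over all genes, the 2 Nexturastat A libraries differed by a chi-square of 106 per degree of freedom, against 20.4 between the Ctrl libraries. CDKN2D, p19, also rose, and CDKN2C, p18, fell. Of the 6 members tested, 2 rose and 1 fell, at a background of 21.1% of 16678 genes called higher and 15.5% called lower (36.6% in either direction), where called means a Benjamini-Hochberg adjusted p under 0.05.

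CDKN2D had 47.3 and 48.7 CPM with Nexturastat A, against 31.5 and 28.7 CPM in Ctrl (log2 fold change 0.58 ± 0.13, edgeR adjusted p = 0.0155). CDKN2C had 51.8 and 49.9 CPM with Nexturastat A, against 63.4 and 66.5 CPM in Ctrl (log2 fold change -0.44 ± 0.12, edgeR adjusted p = 0.0293). Both calls were lost when either Ctrl library was left out, when adjusted p lay between 0.138 and 0.270. The CDKN2D call was also lost when trends on GC content and length were removed (0.31, adjusted p = 0.0747), and the CDKN2C call when genes under a mean of 5 CPM were left out (-0.33, adjusted p = 0.0800).

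CDKN3 had 47.6 and 86.1 CPM with Nexturastat A, against 99.04 and 102 CPM in Ctrl. Both Nexturastat A libraries were below both Ctrl libraries, but they differed from each other, and the change was not called by edgeR (-0.68 ± 0.28, adjusted p = 0.103). DESeq2 (-0.68, adjusted p = 0.0405) and limma voom (-0.74, adjusted p = 0.0297) did call it. Without Nexturastat A replicate 2 the edgeR value was -1.18 (adjusted p = 0.000102), and without Nexturastat A replicate 1 it was -0.31 (adjusted p = 0.0451). CDKN1B had 114 and 88.7 CPM with Nexturastat A, against 88.3 and 85.7 CPM in Ctrl (0.13, 95% interval -0.22 to 0.48). CDKN1C had 17.5 and 11.5 CPM with Nexturastat A, against 10.9 and 10.8 CPM in Ctrl (0.33, -0.21 to 0.87). For CDKN1B, CDKN1C and CDKN3 the first Nexturastat A library was farther from Ctrl than the second.

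Among the partners and regulators of the inhibitors, CDK4 fell to 151 ± 24.5 CPM with Nexturastat A, against 232 ± 23.5 CPM in Ctrl (SD, n = 2 each), and CDK2 fell to 70.4 ± 24.9 CPM, against 118 ± 0.189 CPM. CCND1, cyclin D1, rose to 726 ± 113 CPM, against 423 ± 9.55 CPM. Of 11 CDKs and cyclins, 2 rose, 2 fell and 7 were not called, with a median log2 fold change of -0.50 beside 0.03 over all genes. In the RB and E2F family 0 of 13 rose and 5 fell (median -0.39), among them RBL1, which encodes p107 (-1.40 ± 0.31), and TFDP1, the partner of E2F proteins (-0.93 ± 0.20). The background for each list of this comparison was 21.1% of all genes called higher and 15.5% lower (36.6% in either direction).

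Of 16 regulators of the inhibitors tested, 2 rose and 4 fell, beside 36.6% of all genes called in either direction. MYC, known as a repressor of CDKN1A, rose by 2.05 ± 0.14, and SKP2, which marks p27 for degradation, fell (-1.17 ± 0.21).

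Of 19 proliferation genes, PCNA was called lower and 18 were not called, although their median log2 fold change was -1.20. Of 14 methionine salvage and MTAP-linked genes, in cells without MTAP counts above the floor, 1 rose and 3 fell. The share called over all genes was 36.6%. ADI1 (-1.46 ± 0.16) and APIP (-0.93 ± 0.15), both salvage enzymes downstream of MTAP, were lower. ODC1, which makes putrescine, was higher (0.78 ± 0.20). Markers of other cells moved with this comparison too. The summed level of 8 luminal breast genes was 796 to 832 CPM with Nexturastat A and 389 to 433 CPM in Ctrl. KRT19 made up most of that sum, at a mean of 749 CPM with Nexturastat A and 308 CPM in Ctrl. Of 7 luminal genes tested, 3 were called higher and 1 lower, beside 36.6% of all genes called. The lower gene was ERBB2, at 43.2 CPM against 84.2 CPM in Ctrl. The summed level of 8 lung epithelium genes was 44.5 to 56.4 CPM with Nexturastat A and 251 to 360 CPM in Ctrl, led by MUC5AC in Ctrl. The 7 blood and stroma markers summed to 59.4 to 66.0 CPM with Nexturastat A and 22.7 to 24.8 CPM in Ctrl. Their part in the changes was not tested.

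**Figure D3:**
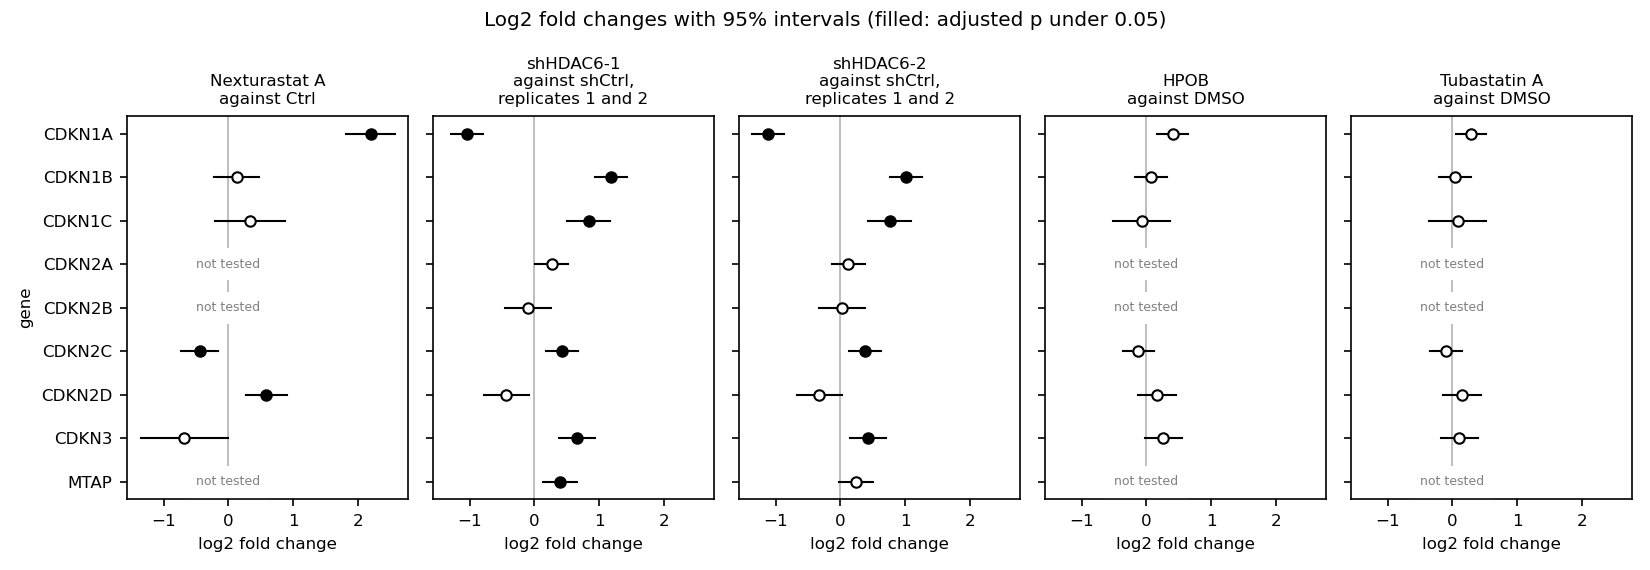
Log2 fold changes of the 9 genes with 95% intervals in 5 comparisons, filled where the edgeR adjusted p was under 0.05. CDKN1A is at 2.20 with Nexturastat A, at -1.04 and -1.12 with the hairpins in replicates 1 and 2, and at 0.40 and 0.29, not called, with HPOB and Tubastatin A.

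HDAC6 mRNA was lower with both hairpins in every replicate. In replicates 1 and 2 it had 12.6 and 11.8 CPM with shHDAC6-1, 12.2 and 13.6 CPM with shHDAC6-2, and 47.8 and 54.6 CPM with shCtrl (log2 fold changes -1.99 ± 0.14 and -1.90 ± 0.14, edgeR adjusted p = 9.52e-10 and 1.77e-09). In replicate 3 it had 9.20 CPM with shHDAC6-1, 11.6 CPM with shHDAC6-2 and 24.9 CPM with shCtrl. That replicate has 1 library in each group and no test. A fall past 2-fold was common there, reached by 32.7% of all genes with shHDAC6-1 and 31.3% with shHDAC6-2. These shares use library sizes scaled by TMM, which puts each ratio above that of the printed CPM. On that scale HDAC6 fell past 2-fold with shHDAC6-1 but not with shHDAC6-2.

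In replicates 1 and 2, CDKN1A fell and CDKN1B rose with both hairpins. CDKN1A had 59.7 and 64.8 CPM with shHDAC6-1, 54.8 and 62.1 CPM with shHDAC6-2, and 136 and 135 CPM with shCtrl. All 4 hairpin libraries lay below both shCtrl libraries. The log2 fold changes were -1.04 ± 0.12 and -1.12 ± 0.12 (SE, n = 2 each; edgeR adjusted p = 8.35e-07 and 3.44e-07). Both hairpins are set against the same shCtrl libraries. The summed level of the kidney or neuronal-like markers given above was also higher with the hairpins in these replicates, but not every marker rose. Of 6 tested, 4 were called higher and 1 lower with shHDAC6-1, and 5 higher and 0 lower with shHDAC6-2. Of all genes, 30.5% and 27.6% were called in either direction. The lower gene with shHDAC6-1 was PAX2 (log2 fold change -0.61). The part of these markers in the changes was not tested.

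CDKN1B, p27, had 75.3 and 77.9 CPM with shHDAC6-1, 68.0 and 67.6 CPM with shHDAC6-2, and 37.7 and 34.0 CPM with shCtrl, again without overlap. It rose by 1.18 ± 0.12 and 1.02 ± 0.12 on the log2 scale with shHDAC6-1 and shHDAC6-2 (edgeR adjusted p = 1.44e-07 and 1.11e-06). CDKN1C, p57, had 26.0 and 27.6 CPM with shHDAC6-1, 20.6 and 29.4 CPM with shHDAC6-2, and 14.7 and 16.9 CPM with shCtrl. It rose by 0.84 ± 0.16 and 0.76 ± 0.16 (edgeR adjusted p = 0.000344 and 0.000999), the second by 0.47 without shHDAC6-2 replicate 2. Within the Cip/Kip family, then, p21 mRNA was lower and p27 and p57 mRNA were higher with each hairpin in replicates 1 and 2. These values are those before trends on GC content and length were removed, and their sizes after removal are not given here. Over all genes, log2 fold changes in these replicates correlated with GC content at Spearman rho -0.378 for shHDAC6-1 and -0.268 for shHDAC6-2. The part of GC content in the sizes of these 3 changes is thus left undescribed.

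All 9 members were tested in these replicates. With shHDAC6-1, 5 rose and 1 fell, at a background of 15.3% of 17702 genes called higher and 15.2% lower (30.5% in either direction). With shHDAC6-2, 4 rose and 1 fell, at 14.4% higher and 13.2% lower (27.6% in either direction). The median log2 fold change of the members was 0.40 with shHDAC6-1 and 0.24 with shHDAC6-2, beside -0.02 and 0.00 over all genes.

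Among the INK4 genes, CDKN2C rose by 0.43 ± 0.12 with shHDAC6-1 and 0.38 ± 0.12 with shHDAC6-2 (edgeR adjusted p = 0.00812 and 0.0192). Its levels were 65.1 and 74.0 CPM with shHDAC6-1, 67.5 and 65.3 CPM with shHDAC6-2, and 54.8 and 54.2 CPM with shCtrl. The call was lost without shHDAC6-1 replicate 2 for shHDAC6-1 (0.33, adjusted p = 0.202), and for shHDAC6-2 without shHDAC6-2 replicate 1 or either shHDAC6-1 library (0.35 to 0.37, adjusted p 0.0503 to 0.0879). CDKN2D had 10.0 and 12.1 CPM with shHDAC6-1, 10.1 and 13.6 CPM with shHDAC6-2, and 16.2 and 15.4 CPM with shCtrl, and was not called (-0.43 ± 0.17 and -0.32 ± 0.16, edgeR adjusted p = 0.0510 and 0.155). The shHDAC6-1 value was called by limma voom (-0.44, adjusted p = 0.0365) and without a filter on low counts (-0.43, adjusted p = 0.0321).

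CDKN2A itself was not called in these replicates. Its log2 fold change was 0.27 (95% interval 0.01 to 0.52, edgeR adjusted p = 0.103) with shHDAC6-1 and 0.12 (-0.13 to 0.37, adjusted p = 0.503) with shHDAC6-2. With trends on GC content and length removed it was called with both, at 0.54 (adjusted p = 2.42e-07) and 0.41 (adjusted p = 1.39e-05). CDKN2B differed by -0.10 (-0.45 to 0.25) with shHDAC6-1 and 0.02 (-0.33 to 0.37) with shHDAC6-2, neither called. MTAP rose with shHDAC6-1 (0.40 ± 0.13, edgeR adjusted p = 0.0225) and was not called with shHDAC6-2 (0.24 ± 0.13, adjusted p = 0.171). The MTAP call was lost without shCtrl replicate 2 or either shHDAC6-1 library (0.31 to 0.43, adjusted p 0.0954 to 0.162), and whether the hairpins differ in it was not tested.

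CDKN3 had 34.6 and 37.7 CPM with shHDAC6-1, 33.0 and 28.0 CPM with shHDAC6-2, and 25.8 and 22.8 CPM with shCtrl. It rose by 0.65 ± 0.14 and 0.42 ± 0.14 (edgeR adjusted p = 0.000771 and 0.0215). The shHDAC6-2 call was lost without shCtrl replicate 2 (0.34, adjusted p = 0.109) or shHDAC6-2 replicate 1 (0.29, adjusted p = 0.225). Of 19 proliferation genes, 1 rose and 10 fell with shHDAC6-1 (median -0.36), and 1 rose and 6 fell with shHDAC6-2 (median -0.24). Of all genes, 15.3% were called higher and 15.2% lower with shHDAC6-1, and 14.4% and 13.2% with shHDAC6-2. AURKB, a mitotic kinase, fell by 1.84 and 1.87 on the log2 scale with shHDAC6-1 and shHDAC6-2, while RRM2, a ribonucleotide reductase subunit, rose by 0.99 and 0.92.

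The partners of the inhibitors moved in both directions. Of 11 CDKs and cyclins, 5 rose and 1 fell with shHDAC6-1, and 4 rose and 2 fell with shHDAC6-2. CCND2, cyclin D2, rose with both hairpins and averaged 303 ± 13.6 CPM for shHDAC6-1, 382 ± 22.4 CPM for shHDAC6-2 and 191 ± 25.9 CPM for shCtrl (SD, n = 2 each). CDK2 fell by 0.41 and 0.52 on the log2 scale with shHDAC6-1 and shHDAC6-2. In the RB and E2F family 3 rose and 3 fell with shHDAC6-1, and 3 rose and 2 fell with shHDAC6-2. The background for both lists was 30.5% of all genes called in either direction with shHDAC6-1 and 27.6% with shHDAC6-2. E2F7, a repressor E2F, rose by 1.80 and 1.70, and E2F4, which acts with p107 and p130, fell by 0.64 and 0.74.

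Of 14 methionine salvage and MTAP-linked genes, 3 rose and 1 fell with shHDAC6-1, and 4 rose and 1 fell with shHDAC6-2. The share called over all genes was 30.5% and 27.6% in that order. ADI1 was higher with both hairpins (0.60 ± 0.12 and 0.47 ± 0.12) and ENOPH1, the enzyme before it in the pathway, lower (-0.46 ± 0.12 and -0.65 ± 0.12).

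Replicate 3 of the knockdown gave the opposite directions for CDKN1A, CDKN1B, CDKN2C and CDKN3. With 1 library in each group there is no test, and the ratios below carry counting intervals only. They use library sizes scaled by TMM over the 3 libraries, which puts each log2 ratio above that of the printed CPM by 0.25 for shHDAC6-1 and 0.27 for shHDAC6-2. CDKN1A had 514 CPM with shHDAC6-1 and 274 CPM with shHDAC6-2, against 42.3 CPM with shCtrl. The ratio was 14.4 (95% counting interval 13.9 to 15.02) for shHDAC6-1 and 7.80 (7.49 to 8.13) for shHDAC6-2. CDKN1B had 14.5 CPM with shHDAC6-1 and 12.02 CPM with shHDAC6-2, against 74.3 CPM with shCtrl (ratios 0.233 and 0.195). CDKN3 had 21.3 and 26.0 CPM with the same hairpins, against 101 CPM with shCtrl (ratios 0.251 and 0.310).

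CDKN1C was higher in both replicate sets before trends on GC content were removed, with 17.7 CPM for shHDAC6-1 and 17.0 CPM for shHDAC6-2, against 6.54 CPM for shCtrl in replicate 3 (ratios 3.22 and 3.13). CDKN2C had 69.2 and 58.8 CPM with the hairpins in that order, against 120 CPM with shCtrl (ratios 0.684 and 0.588, the second 0.488 in plain CPM and so past 2-fold). CDKN2D had 56.8 and 30.4 CPM, against 33.9 CPM (ratios 1.99 and 1.08). In plain CPM the CDKN2D ratio with shHDAC6-2 was 0.896, so its direction turned with the scaling. The TMM-scaled CDKN2D ratios lay opposite to its uncalled changes in replicates 1 and 2. Of the 6 members with counts in all 3 libraries, 2 were higher and 2 lower by more than 2-fold with each hairpin, at a background of 26.6% higher and 32.7% lower of 13934 genes (59.3% in either direction) for shHDAC6-1 and 25.7% higher and 31.3% lower (57%) for shHDAC6-2. A change past 2-fold was thus common among all genes of this replicate.

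GC content moved with these ratios. Across 13160 genes the log2 ratio correlated with GC content at Spearman rho 0.792 for shHDAC6-1 and 0.778 for shHDAC6-2 in replicate 3, against -0.378 and -0.268 in replicates 1 and 2 (16476 genes; genes are not independent replicates). CDKN1A, CDKN1C, CDKN2C and CDKN2D have 58.1 to 63.8% GC in their longest transcript, and CDKN1B and CDKN3 have 47.7% and 43.9%. With trends on GC content and length removed, the log2 ratio of CDKN1A in replicate 3 was 2.46 with shHDAC6-1 and 1.62 with shHDAC6-2, against 3.85 and 2.96 with TMM scaling alone. CDKN1B and CDKN3 stayed lower with both hairpins (-1.96 and -2.28 for CDKN1B, -1.20 and -0.95 for CDKN3), CDKN2C was at -1.87 and -2.04, CDKN1C moved to -0.08 and 0.01, and CDKN2D to -0.69 and -1.48.

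The difference between replicate 3 and replicates 1 and 2 was estimated in 1 edgeR fit of the 9 knockdown libraries, with an interaction of hairpin and replicate set. Its 3 residual degrees of freedom all come from replicates 1 and 2, so its calls assume that the lone libraries of replicate 3 vary like those, which could not be checked. The hairpin effect on CDKN1A was higher in replicate 3 by 4.91 on the log2 scale for shHDAC6-1 and by 4.05 for shHDAC6-2, or by 3.02 and 2.18 with trends on GC content and length removed. That on CDKN1B was lower (-3.26 and -3.40), as was that on CDKN3 (-2.63 and -2.14). Of 18942 genes, 64.6% and 63.2% were called in this fit, so such differences were the rule among all genes.

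**Figure D4:**
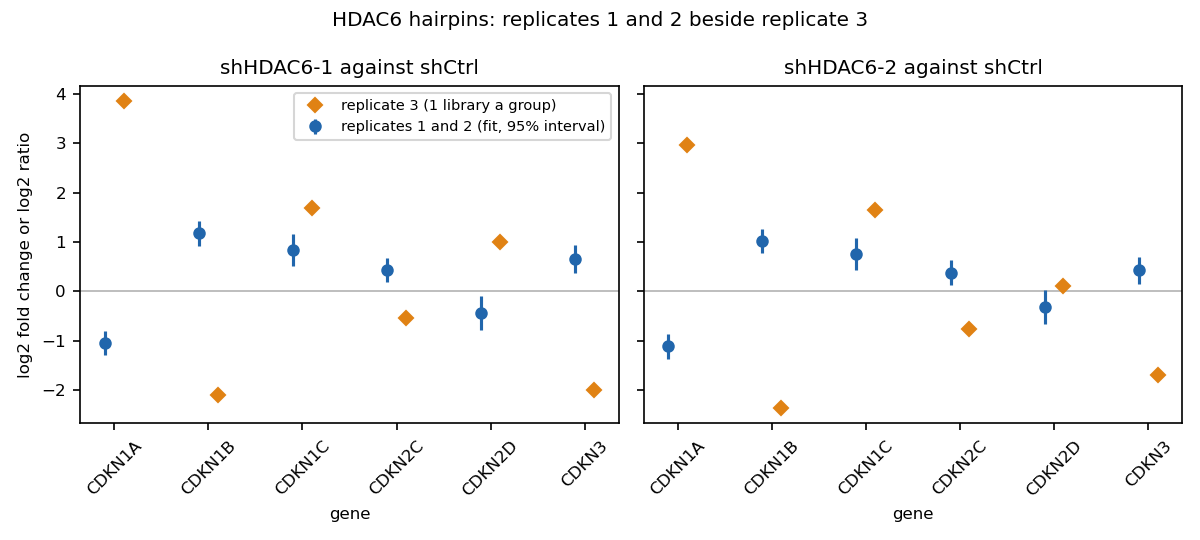
Log2 fold change of 6 inhibitors against shCtrl for each hairpin, in replicates 1 and 2 (circles, edgeR fit with 95% interval, n = 2 each) and in replicate 3 (diamonds, log2 ratio of 1 library a group, TMM-scaled). CDKN1A, CDKN1B, CDKN2C and CDKN3 lie on opposite sides of 0 in the replicate sets. So does CDKN2D as plotted, although it was not called in replicates 1 and 2. Its replicate 3 values fell below 0 with trends on GC content and length removed. CDKN1C lies on the same side in both sets, although its replicate 3 ratios are -0.08 and 0.01 with those trends removed.

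Of 10 CDKs and cyclins with counts in replicate 3, 2 were higher and 4 lower by more than 2-fold with shHDAC6-1, and 0 were higher and 4 lower with shHDAC6-2. Of all genes, 26.6% were higher and 32.7% lower by that much with shHDAC6-1, and 25.7% and 31.3% with shHDAC6-2.

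HPOB and Tubastatin A left the inhibitors without a called change. Of 6 members tested, 0 were called with HPOB, at a background of 0.0261% of 15338 genes (4 genes), and 0 with Tubastatin A, at a background of 0%. At an unadjusted p under 0.05, 1 member passed with HPOB, beside 10.4% of genes, and 1 with Tubastatin A, beside 4.94%; DESeq2 and limma voom also called 0 members. CDKN1A had 76.3, 72.1 and 87.4 CPM with HPOB, 64.8, 80.9 and 71.9 CPM with Tubastatin A, and 58.3, 58.1 and 61.4 CPM with DMSO. All 6 compound libraries were above all 3 DMSO libraries.

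The log2 fold change of CDKN1A was 0.40 (95% interval 0.17 to 0.64, edgeR adjusted p = 0.294) with HPOB and 0.29 (0.05 to 0.52, adjusted p = 0.857) with Tubastatin A, set against the same DMSO libraries. Over all genes, Tubastatin A replicate 2 differed from its replicates by a chi-square of 79.0 and 71.0 per degree of freedom, against 9.19 between the other two, while the HPOB libraries differed from one another by 41.1 to 50.2. Without HPOB replicate 3 and Tubastatin A replicate 2, left out after they were seen to be the highest of their groups for CDKN1A, the values were 0.32 (adjusted p = 0.179) and 0.19 (adjusted p = 0.976). Since the doses of HPOB and Tubastatin A are not given here, no comparison between compounds was made.

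CDKN3 had 75.1, 94.7 and 90.1 CPM with HPOB, 71.4, 94.4 and 66.8 CPM with Tubastatin A, and 72.6, 71.3 and 72.0 CPM with DMSO. The HPOB libraries were above all DMSO libraries and the Tubastatin A libraries overlapped them, and neither change was called (0.26, 95% interval -0.02 to 0.55, and 0.10, -0.18 to 0.39). CDKN1B, CDKN1C, CDKN2C and CDKN2D overlapped DMSO with both compounds, with log2 fold changes between -0.12 and 0.16. None of the genes in the lists of CDKs and cyclins, RB and E2F proteins, regulators, proliferation and methionine salvage was called with either compound.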

How the data were processed

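The deposited files hold raw counts per gene symbol for each library. Per the submitters' processing notes, the authors used Trim Galore 0.6.7, STAR 2.7.9a, featureCounts 2.0.3 and DESeq2 1.30.1 with GRCh38 and their roles, the annotation and the strand setting were not found in these notes. Of 26485 symbols, 23900 matched GENCODE release 29, which gave positions, lengths and GC content. Group and replicate came from the labels. The titles of the Tubastatin A libraries read TSA, and the treatment label was used. Replicate 3 ratios use TMM-scaled library sizes, whereas CPM and lower bounds on folds use library totals.

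Each experiment was fitted over all genes with edgeR 4.0.16 in R 4.3.3 (TMM, filterByExpr with minimum count 10 and total 15, robust quasi-likelihood F test, Benjamini-Hochberg adjustment, threshold 0.05), with all groups of an experiment sharing the spread and knockdown replicates 1 and 2 fitted apart from replicate 3. The test was checked on simulated counts. Alternatives were DESeq2 1.42.0, limma 3.58.1 voom with library weights, other filters, a replicate block, removal of GC and length trends (spline, 3 degrees of freedom), total-count scaling and leaving out libraries. The members and lists were chosen with earlier results of these data known; list genes are named by the 2 highest and 2 lowest called changes. Results for 1 regulator and its target list are not reported here.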

Additional observations from a re-analysis of the deposited data

Results flagged for a closer look

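The effect of the HDAC6 hairpins on the CDK inhibitors differed between replicate 3 and replicates 1 and 2 in an edgeR fit with an interaction, which was chosen after the data were seen. Its estimate of spread comes from replicates 1 and 2 alone and assumes that the single libraries of replicate 3 vary like them. With shHDAC6-1 the effect in replicate 3 minus that in replicates 1 and 2 was 4.91 (log2) for CDKN1A, -3.26 for CDKN1B, 0.86 for CDKN1C, -0.96 for CDKN2C, 1.44 for CDKN2D and -2.63 for CDKN3. With shHDAC6-2 it was 4.05 for CDKN1A, -3.40 for CDKN1B, 0.86 for CDKN1C, -1.18 for CDKN2C and -2.14 for CDKN3, while CDKN2D did not pass (0.41, edgeR adjusted p = 0.184). With trends on GC content and length removed, the differences for CDKN1C turned to -1.58 and -1.51 and those for CDKN2D to -0.77 and -1.79, and those for CDKN1A shrank to 3.02 and 2.18. On the same scale those for CDKN1B were -3.24 and -3.50, those for CDKN2C -2.81 and -2.99, and those for CDKN3 -1.66 and -1.40, and CDKN2D passed with shHDAC6-2 too (edgeR adjusted p = 5.12e-08). CDKN2A, CDKN2B and MTAP had 0 counts in shCtrl replicate 3, so no difference of effects is given for them. No group held the 4 libraries that a check for a lone outlying library needs.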

How the results depend on the processing

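CDKN1A kept direction and call when any 1 library was left out of the Nexturastat A fit (2.00 to 2.37) or of the fits of replicates 1 and 2 for shHDAC6-1 (-1.10 to -0.96) and shHDAC6-2 (-1.22 to -1.04), and its uncalled values ranged from 0.32 to 0.46 with HPOB and from 0.20 to 0.36 with Tubastatin A. Lone libraries in such fits are assumed to vary like the rest. Leaving out 1 library gave 1781 to 8922 called genes and 1 to 6 called members with Nexturastat A (6112 and 3 with all), 3160 to 5999 and 4 to 7 with shHDAC6-1 (5401 and 6), 3470 to 4931 and 3 to 6 with shHDAC6-2 (4880 and 5), and 0 to 78 genes with HPOB (4). The lowest and highest Nexturastat A counts came without Ctrl replicate 1 and without Nexturastat A replicate 2, and without the second of these CDKN1B and CDKN1C were called too, at 0.29 and 0.59. Uncalled members changed sign within their ranges: CDKN1B between -0.053 and 0.29 with Nexturastat A, CDKN2B between -0.20 and 0.016 with shHDAC6-1 and between -0.076 and 0.12 with shHDAC6-2, CDKN2A between -0.016 and 0.23 with shHDAC6-2, CDKN1B between -0.018 and 0.16 and CDKN1C between -0.33 and 0.11 with HPOB, and with Tubastatin A CDKN1B between -0.012 and 0.099, CDKN1C between -0.00046 and 0.19, CDKN2D between -0.015 and 0.26 and CDKN3 between -0.065 and 0.19.

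A fit of all 9 knockdown libraries together called 0 genes and 0 members with either hairpin, with or without a replicate block. Without the block, CDKN1A was 1.39, CDKN2C -0.053, CDKN2D 0.51 and CDKN3 -0.67 with shHDAC6-1, and CDKN1A was 0.61, CDKN1B -0.0069, CDKN2C -0.20 and CDKN3 -0.76 with shHDAC6-2. With the block, CDKN1A was 0.040, CDKN1B -0.16, CDKN2B 0.32, CDKN2D 0.036 and CDKN3 -0.33 with shHDAC6-1, and CDKN1A was -0.46, CDKN1B -0.36, CDKN2C -0.069 and CDKN3 -0.47 with shHDAC6-2. The cause was not tested.

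Requiring a mean of 5 CPM left 3586 called genes with Nexturastat A and 2 with HPOB, and turned CDKN2B to -0.029 with shHDAC6-2. Removing GC and length trends gave 7372 called genes and CDKN2B at -0.088 with shHDAC6-2, 22 genes with HPOB, 3 genes with CDKN1C at -0.075 and CDKN2D at -0.028 with Tubastatin A, and in replicate 3 left 4699 genes past 2-fold with shHDAC6-1 (CDKN1C at -0.082) and 4658 with shHDAC6-2. DESeq2 called 120 genes with HPOB and 23 with Tubastatin A, and limma voom 54 and 26, with CDKN3 at -0.039 in Tubastatin A. HPOB gave 14 genes with no filter, 15 when only its libraries and DMSO were fitted, and 7 with a replicate block. Leaving out HPOB replicate 3 and Tubastatin A replicate 2 gave 20 genes and CDKN1C at 0.11 with HPOB, and CDKN2D at -0.021 and CDKN3 at -0.071 with Tubastatin A. Scaling by total counts alone gave CDKN1A log2 ratios of 3.601 and 2.699 in replicate 3 for shHDAC6-1 and shHDAC6-2, turned CDKN2D to -0.16 with shHDAC6-2, and put 5 members past 2-fold with shHDAC6-2 in place of 4.

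Same-numbered libraries did not deviate together in the fitted sets (residual correlations of 0.09 in the Nexturastat A experiment, -0.04 to 0.14 in knockdown replicates 1 and 2, and -0.15 to 0.18 with HPOB and Tubastatin A), so a number was not taken as a pairing. Over all 9 knockdown libraries the correlations were 0.47 to 0.92, where the numbers also separate replicate 3 from replicates 1 and 2. A replicate block brought CDKN3 with Nexturastat A (-0.74), and CDKN2A (0.26) and CDKN2D (-0.44) with shHDAC6-1, past the threshold and changed no other member's call.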

Other observations

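The genes whose levels most resembled CDKN1A over the 19 libraries outside knockdown replicate 3, with each experiment centred on its mean, were SERINC2, FADS3, DPP4, KRT81 and HS1BP3, with Pearson r between 0.962 and 0.970 among 14438 genes. For CDKN3 they were RANBP1, CENPQ, MRPS15, THOC3 and DEGS1, with r between 0.941 and 0.956. For CDKN2A over all 22 libraries they were SOX8, SLC7A3, CDX2, CBLN1 and SMO, with r between 0.997 and 0.999 among 14393 genes. These are descriptions: the libraries share experiments and controls, and for CDKN2A the value mostly records the division between knockdown replicates 1 and 2 and the rest.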
